A study of Mus musculus with 8 samples.

Results

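Ribosome assembly and rRNA processing factors were examined in B cells of the germinal centre (GC), the site in lymphoid follicles where activated B cells divide. The list held 43 genes chosen by name, and 42 of them had a probe set of their own, out of 18193 genes on the array. Mrto4 was the exception, since its probe set is shared by 3 genes. All 42 passed the filter on dim signals. They were 18 factors of the small (40S) subunit, 19 of the large (60S) subunit and 5 that serve both subunits or neither in particular.

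The cells came from spleens of 8-week-old GFPMYC knock-in mice on C57BL6, taken 12 days after immunization with sheep red blood cells (SRBC). GC B cells with high PNA binding and high CD95 were sorted by GFP, which reports the MYC fusion, into 4 MYC-positive and 4 MYC-negative samples, and every sample carries the GFP-MYC allele. RNA was amplified and hybridised to Affymetrix mouse arrays, and the sample descriptions join the 8 arrays into 4 pairs. The protocol speaks of a sort for each mouse and the design text of pools, so it is not settled whether a pair is 1 mouse.

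A ribosome is built in the nucleolus on a long precursor rRNA that RNA polymerase I transcribes. The small-subunit processome, a large particle of UTP proteins and the U3 snoRNP, folds and cuts the precursor at its start, and the pre-40S particle is finished in the cytoplasm. Large-subunit factors then fold and trim the rest into the pre-60S particle, and GTPases, chaperones and methyltransferases act along both routes. Factors of both routes are known as MYC targets, and MYC binds the E-box, CACGTG, in many of their promoters.

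The promoters of the members are shown first. RefSeq promoter windows, from 250 bases before to 50 bases after each start site on build GRCm38.p6, matched 36 of the 42 members. An E-box, searched as CACGTG, which reads the same on both strands and was the only motif searched, lay in a window of 11 of these 36 genes (30.6%). It lay in a window of 17 of 62 other assembly factors (27.4%), of 17.4% of the genes called higher in MYC-positive cells, of 11.7% of the genes tested and of 8.09% of all genes in the promoter table. These are descriptions of letters in a window and not of binding. The members with and without an E-box had median differences of 1.29 and 1.37 on the log2 scale.

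The 30 bases around each of the 11 E-boxes are printed 5′ to 3′ on the gene's strand, with the E-box in capitals, to show where each lies and what surrounds it. In 8 genes the E-box starts after the start site, and in Nop2, Utp18 and Imp4 before it.
Grwd1, chr7:45830740-45830769, minus strand, first base of the E-box at 35: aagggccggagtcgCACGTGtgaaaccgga
Nop2, chr6:125131811-125131840, plus strand, at -60: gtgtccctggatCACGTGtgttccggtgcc
Mybbp1a, chr11:72441347-72441376, plus strand, at 41: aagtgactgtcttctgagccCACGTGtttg
Tsr1, chr11:74898092-74898121, plus strand, at 25: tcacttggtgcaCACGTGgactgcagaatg
Nle1, chr11:82908355-82908384, minus strand, at 24: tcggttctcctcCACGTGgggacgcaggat
Ltv1, chr10:13193092-13193121, minus strand, at 29: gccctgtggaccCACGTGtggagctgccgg
Utp18, chr11:93885769-93885798, minus strand, at -20: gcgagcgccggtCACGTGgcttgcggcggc
Pes1, chr11:3963965-3963994, plus strand, at 3: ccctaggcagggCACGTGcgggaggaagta
Imp4, chr1:34439696-34439725, plus strand, at -121: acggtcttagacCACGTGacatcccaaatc
Utp20, chr10:88826765-88826794, minus strand, at 38: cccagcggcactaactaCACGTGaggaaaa
Wdr43, chr17:71616220-71616249, plus strand, at 18: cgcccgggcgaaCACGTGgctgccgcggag

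For Nop2 and Utp18, 1 large-subunit and 1 small-subunit factor with the E-box close before the start site, the 250 bases before the start site are given whole.
Nop2, chr6:125131633-125131882, plus strand: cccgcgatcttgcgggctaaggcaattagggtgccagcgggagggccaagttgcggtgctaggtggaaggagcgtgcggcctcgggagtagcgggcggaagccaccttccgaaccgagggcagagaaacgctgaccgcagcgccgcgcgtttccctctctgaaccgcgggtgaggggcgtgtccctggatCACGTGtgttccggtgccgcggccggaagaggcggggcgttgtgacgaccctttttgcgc
Utp18, chr11:93885767-93886016, minus strand: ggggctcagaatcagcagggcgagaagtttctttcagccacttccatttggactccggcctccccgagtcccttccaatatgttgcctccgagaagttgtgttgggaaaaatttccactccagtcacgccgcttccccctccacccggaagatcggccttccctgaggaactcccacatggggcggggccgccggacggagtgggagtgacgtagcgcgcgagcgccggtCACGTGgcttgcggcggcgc

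All arrays had been scaled to nearly the same trimmed mean signal, 497 to 498, so every value is a level relative to the rest of the array. Myc, on whose fusion the cells were sorted, had signals of 361, 932, 644 and 891 in MYC-positive cells of pairs 1 to 4 and 33.3, 156, 105 and 137 in MYC-negative cells, which checks the labels and is no finding. Among the arrays, the MYC-positive array of pair 4 had the lowest mean correlation with the other 3 of its group (0.904, against 0.923 to 0.943 for the other 7 arrays in their groups) and the smallest share of probe sets with a signal above 100 (34.7%, against 37.1% to 42.7%). Array brightness also moved with the comparison: the median signal was 28.2 to 39.7 in MYC-positive and 41.5 to 55.9 in MYC-negative arrays, and the share above 100 was lower in MYC-positive cells in all 4 pairs. Of 6 B cell markers 0 were called higher and 2, Cd22 and Pax5, lower, with summed signals of 34559 to 42972 in MYC-positive and 43708 to 54665 in MYC-negative arrays. Of 7 GC B cell markers 0 were higher and 2, Mybl1 and the gate's own Fas (CD95), lower, with sums of 22297 to 28071 in MYC-positive and 28101 to 40135 in MYC-negative arrays. Of 5 plasma cell markers 2, Sdc1 and Irf4, were higher, with sums of 23945 to 30602 in MYC-positive and 15933 to 28005 in MYC-negative arrays. Of 3 T cell markers that passed the filter 1, Thy1, was higher, of granulocyte markers 0 of 1, and no erythroid marker passed. The granulocyte sums were 52.6 to 597 in MYC-positive and 45.5 to 128 in MYC-negative arrays. In the MYC-positive array of pair 4, S100a8 had 139 and S100a9, which did not pass the filter, 423. In the remaining arrays S100a8 had 3.22 to 41.4 and S100a9 1.63 to 4.68. Myeloid markers also moved with the comparison: 15 were on the array, 12 passed the filter, 8 were called higher and 1, Apoe, lower, and their summed signal was 1623 to 10841 in MYC-positive and 681 to 1567 in MYC-negative arrays. C1qa, C1qc, Slc40a1 and Vcam1 lay between 1.51 and 19.4 in all MYC-negative arrays, about the filter level of 18.7 or below it, and Itgam was no higher than 3.53 in any array. Csf1r had 76.0 in the MYC-negative array of pair 1 and 1.27 to 3.09 in the others of that group. Csf1r, C1qa, C1qc, Slc40a1 and Vcam1 passed the filter on the mean of all arrays only through their MYC-positive signals. Over all genes tested 11.2% were called higher and 11.5% lower. The part of the brightness and of these marker lists in the results below was not tested, and in bulk samples fewer cells of a type and less RNA per cell cannot be told apart.

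Assembly factors of both subunits were higher in MYC-positive than in MYC-negative GC B cells almost throughout. Of the 42 members, 40 were called higher and 0 lower by limma at a Benjamini-Hochberg adjusted p under 0.05, where 11.2% of the 11754 genes tested were called higher and 11.5% lower. At an unadjusted p under 0.05, 41 were higher and 0 lower, but the share of all genes at this looser threshold was not counted. The median member was 1.28 higher on the log2 scale (2.43-fold), while the median of all genes tested was -0.06. All 42 differed upwards in each of the 4 pairs, where 19.3% of all genes did. In 37 members every MYC-positive array lay above every MYC-negative array, where 11.1% of all genes had such a gap. Nip7, the lowest member, still lay above 72.2% of the genes tested, and 32 members lay among the top 10% of differences. Without pair 4, which holds the array that stood apart, 40 members were called and the median was 1.20, while without pair 1 25 were called and the median was 1.25. Of all genes 1742 were called higher without pair 4 and 403 without pair 1, against 1319 with all pairs.

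**Figure D1:**
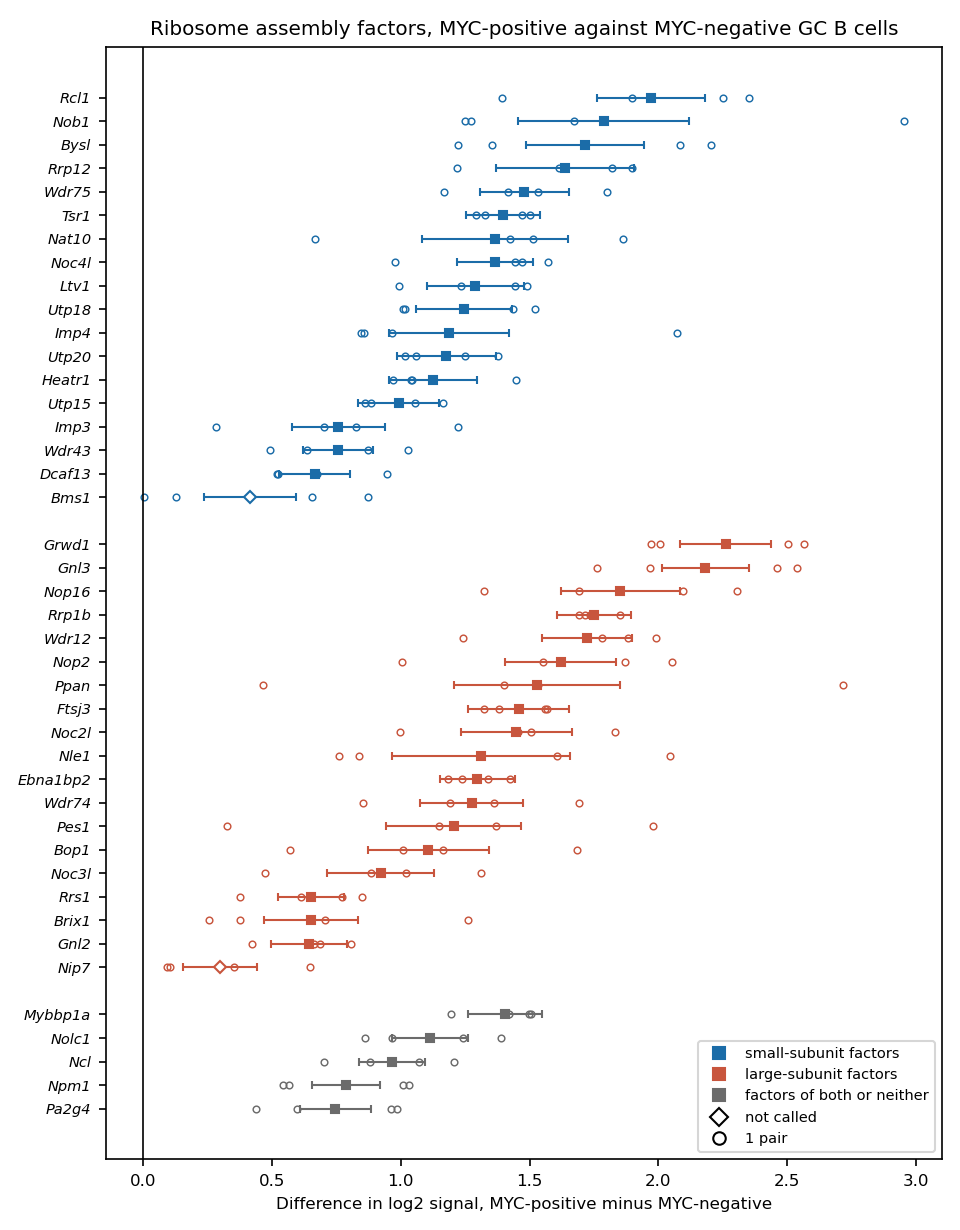
Difference in log2 signal between MYC-positive and MYC-negative cells for the 42 measured factors, by class. Squares (diamonds where not called) are the fitted difference with its SE, and open circles are the 4 pairs. All 42 estimates lie above 0, from 0.30 for Nip7 to 2.26 for Grwd1.

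Of the 18 small-subunit factors 17 were called higher, with a median of 1.27 and a range from 0.42 to 1.97. Among these 18 the largest differences belonged to Rcl1 and to Nob1, Bysl and Rrp12, factors of the later steps. In yeast Rcl1 joins the processome with the GTPase Bms1 and has been described as cutting the precursor. Rcl1 had signals of 2376, 2324, 1792 and 2314 in MYC-positive cells of pairs 1 to 4 and 499.8, 624, 683 and 453 in MYC-negative cells. No MYC-positive array came near the MYC-negative range, and the difference was 1.97 (SE 0.21, limma adjusted p = 0.00088). Nob1, the endonuclease that makes the last cut at the 3′ end of 18S rRNA, had 639, 623, 372 and 726 in MYC-positive and 200.4, 258, 156 and 93.8 in MYC-negative cells. Its difference of 1.79 (SE 0.33, limma adjusted p = 0.0071) had a wide spread between pairs, from 1.25 in pair 3 to 2.95 in pair 4. Bysl, which acts in pre-40S maturation, had 1765, 1766, 1315 and 1836 in MYC-positive and 383, 757, 515 and 433 in MYC-negative cells, a difference of 1.71 (SE 0.23, limma adjusted p = 0.0019). The other late factors were also higher: Rrp12, an export factor of the pre-40S particle, by 1.64, Tsr1, a GTPase-like protein, by 1.40, and Ltv1, a pre-40S factor, by 1.29. The 5 late factors (Nob1, Bysl, Rrp12, Tsr1 and Ltv1) had a median of 1.64, and all 5 were called. The split into early and late steps was made for the listed members only, and the steps overlapped. The early factor Wdr75, at 1.48, lay above the late factors Tsr1 and Ltv1. Without pair 1 the calls of Nob1 (adjusted p = 0.052), Imp4 (0.055), Nat10 (0.077), Imp3 (0.11) and Dcaf13 (0.064) ended, and without pair 2 those of Nat10 (0.072), Imp3 (0.089), Dcaf13 (0.069) and Utp20 (0.052) did.

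The early processome factors numbered 11, all 11 called, with a median of 1.18. Those of the t-UTP group, which is tied to polymerase I transcription, were Wdr75 at 1.48, Heatr1 at 1.12, Utp15 at 0.99 and Wdr43 at 0.76. Nat10, which acetylates 18S rRNA, was at 1.37 and Noc4l, a processome protein, at 1.37. Utp18 stood at 1.25 and the scaffold protein Utp20 at 1.18, while the U3 snoRNP proteins Imp4 and Imp3 were at 1.19 and 0.76. Dcaf13, the mouse counterpart of yeast Sof1, had the smallest called difference of the class: its signals were 4523, 5559, 6331 and 5609 in MYC-positive and 3141, 3482, 3286 and 3908 in MYC-negative cells, and it differed by 0.67 (SE 0.14, limma adjusted p = 0.010). Its groups did not overlap, although the gap between them was narrow. Bms1 was the small-subunit factor that did not pass, with 3481, 4406, 4482 and 3629 in MYC-positive and 3472, 2403, 4097 and 2302 in MYC-negative cells. The groups overlapped, with little difference in pairs 1 and 3, and the estimate was 0.42 (SE 0.18, limma adjusted p = 0.13). After median centring, which raised all genes, it was 0.86 with adjusted p = 0.0068.

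**Figure D2:**
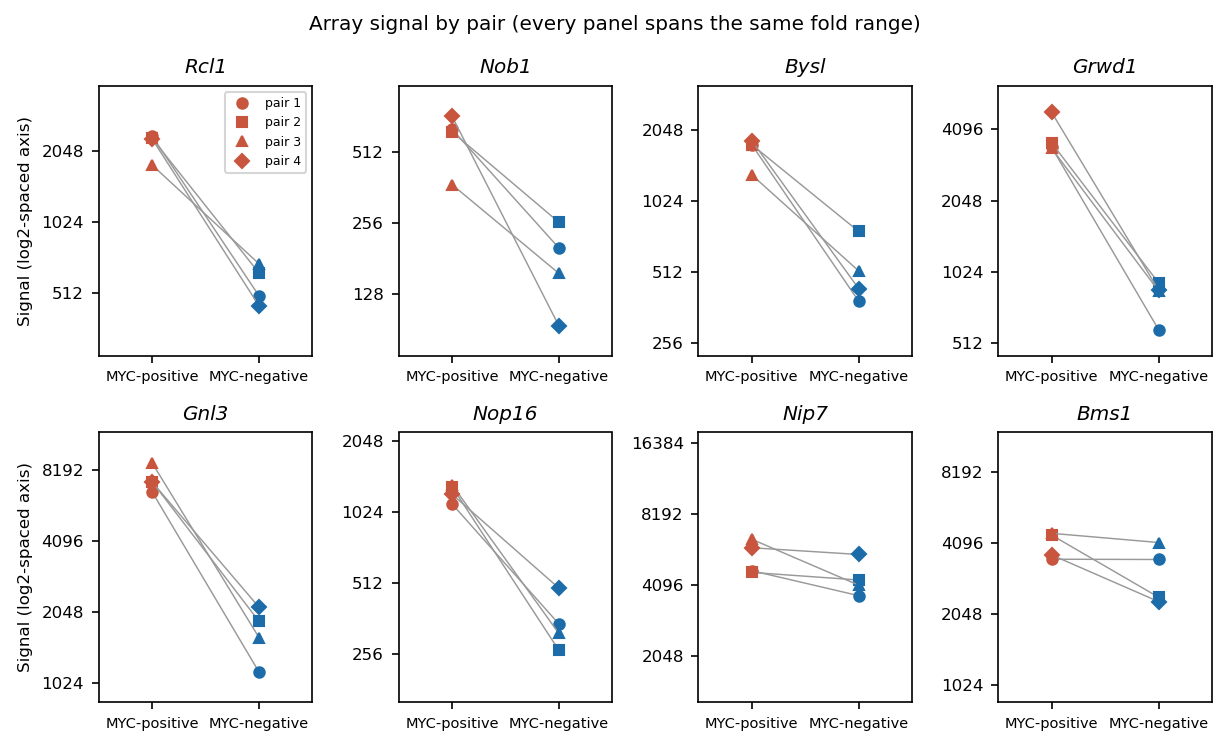
Array signal of 8 factors in MYC-positive (left) and MYC-negative (right) cells, on log2-spaced axes that span the same fold range, with grey lines joining the 4 pairs. In Rcl1, Nob1, Bysl, Grwd1, Gnl3 and Nop16 the groups do not overlap, and in Nip7 and Bms1 they do.

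Of the 19 large-subunit factors 18 were called higher, with a median of 1.31 and a range from 0.30 to 2.26. The count was 10 without pair 1 and also 10 without pair 2, where 403 and 455 of all genes were called higher, against 1319 with all pairs. Grwd1, a chaperone of the ribosomal protein RPL3, had signals of 3443, 3596, 3407 and 4842 in MYC-positive cells of pairs 1 to 4 and 581, 917, 849 and 855 in MYC-negative cells. Its difference was the largest of all members at 2.26, or 4.79-fold (SE 0.18, limma adjusted p = 0.00041), and its position from the top was 102 of 11754 genes. Gnl3, the nucleolar GTPase nucleostemin, had 6598, 7282, 8756 and 7265 in MYC-positive and 1137, 1865, 1592 and 2140.2 in MYC-negative cells. The lowest MYC-positive array was thus well above the highest MYC-negative one, and the difference was 2.18, or 4.54-fold (SE 0.17, limma adjusted p = 0.00041). Nop16, a nucleolar protein of the pre-60S particle, had 1106, 1308, 1333 and 1216 in MYC-positive and 343, 265, 312 and 486 in MYC-negative cells, a difference of 1.85 (SE 0.23, limma adjusted p = 0.0014). Rrp1b, a nucleolar protein related to yeast Rrp1, showed the smallest spread between pairs of the 42 members, with differences from 1.69 to 1.85 over the pairs. Gnl2, another GTPase of the list, was higher by much less than Gnl3. It had 3095, 2991, 2886 and 3243 in MYC-positive and 1923, 2231, 1651 and 2045 in MYC-negative cells (0.65, SE 0.15, limma adjusted p = 0.015).

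Pes1, Bop1 and Wdr12 form the PeBoW complex, which is needed to process the precursor of the large-subunit rRNAs. Wdr12 had signals of 3342, 3938, 4135 and 3439 in MYC-positive and 841, 1147, 1123 and 1456 in MYC-negative cells, a difference of 1.72 (SE 0.17, limma adjusted p = 0.00076). Pes1 had 1756, 1845, 949 and 1644 in MYC-positive and 679.7, 832, 758 and 417 in MYC-negative cells, with 1.21 (SE 0.26, limma adjusted p = 0.013). Bop1 had 1338, 1036, 548 and 918 in MYC-positive and 416, 515, 368 and 410.0 in MYC-negative cells, with 1.11 (SE 0.24, limma adjusted p = 0.012). Each gene was without overlap between the groups, but pair 3 was the weakest pair for Pes1 (0.32) and Bop1 (0.57), while for Wdr12 it was 1.88 and pair 4 was the weakest (1.24). Without pair 1 Pes1 and Bop1 had adjusted p = 0.091 and 0.089, and without pair 2 0.069 and 0.070, while Wdr12 was called under every alternative.

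The rRNA methyltransferase genes Nop2 and Ftsj3 were 1.62 and 1.46 higher, and the nucleolar proteins Noc2l and Noc3l 1.45 and 0.92 higher. The Brix-domain proteins Ppan and Brix1 stood at 1.53 and 0.65, Nle1, which is known from yeast as a substrate of the AAA protein Mdn1, at 1.31, Ebna1bp2 at 1.30 and the pre-60S protein Wdr74 at 1.28. Rrs1, which brings the 5S particle to the pre-60S, was at 0.65. The groups overlapped in Rrs1, Brix1 and Noc3l, although each was called and higher in all 4 pairs. Nip7, a pre-60S factor, did not pass: it had 4704, 4624, 6392 and 5883 in MYC-positive and 3686, 4295, 4084 and 5510.0 in MYC-negative cells. The MYC-negative array of pair 4 lay above the MYC-positive arrays of pairs 1 and 2, and the estimate was 0.30 (SE 0.14, limma adjusted p = 0.17, and 0.74 with 0.013 after median centring). The calls of Ppan, Nle1, Noc3l, Gnl2, Rrs1 and Brix1 ended without pair 1, with adjusted p from 0.072 for Ppan to 0.14 for Nle1, and also without pair 2, from 0.053 for Rrs1 to 0.14 for Brix1. That of Brix1 also ended without pair 3, at 0.45 with adjusted p = 0.099.

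The 5 factors of neither class were all called higher, with a median of 0.97. Mybbp1a, a nucleolar MYB-binding protein, had 4975, 5228, 3878 and 3673 in MYC-positive and 1752, 2281, 1449 and 1300.3 in MYC-negative cells (1.40, SE 0.14, limma adjusted p = 0.00077). Nolc1, a chaperone of snoRNPs, had 4628, 5867, 6409.8 and 4314 in MYC-positive and 2371, 2479, 2449 and 2372 in MYC-negative cells (1.11, SE 0.15, limma adjusted p = 0.0018). Its MYC-negative arrays lay very close together, and the spread between pairs came from the MYC-positive arrays. Nucleolin (Ncl), an abundant nucleolar RNA-binding protein, was 0.97 higher. Nucleophosmin (Npm1), a nucleolar chaperone, had 12326, 12853, 15559.6 and 15964 in MYC-positive and 6123, 8673, 7608 and 10964 in MYC-negative cells (0.79, SE 0.13, limma adjusted p = 0.0046). Pa2g4, the ribosome-associated protein EBP1, had 8757, 8599.7, 11191 and 11263 in MYC-positive and 4427, 5679, 5736 and 8317 in MYC-negative cells (0.75, SE 0.14, limma adjusted p = 0.0069). In both genes the MYC-negative array of pair 4 came closest to the MYC-positive range. Without pair 1 the calls of Npm1 (adjusted p = 0.057) and Pa2g4 (0.071) ended.

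Large-subunit and small-subunit factors were set side by side by pair. The medians of the large-subunit factors were 1.51, 1.46, 1.00 and 1.32 in pairs 1 to 4, and those of the small-subunit factors 1.36, 1.19, 1.05 and 1.44. Large-subunit factors were thus ahead in pairs 1 and 2 and behind in pairs 3 and 4, and the large-minus-small gap averaged 0.06 ± 0.17 (SD, n = 4 pairs), so it was smaller than its spread between pairs. The middle 50% of members lay between 1.02 and 1.67 for large-subunit and between 1.03 and 1.46 for small-subunit factors. Quantile normalization widened the gap, to medians of 1.62 for large-subunit and 1.34 for small-subunit factors. Leaving out pair 3 or pair 4 widened it as well. With the mean over probe sets the order was reversed, at 1.20 for large-subunit and 1.22 for small-subunit factors. Without pair 1 both medians were 1.28, and without pair 2 they were 1.33 and 1.31. Which class was ahead thus depended on the setting.

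**Figure D3:**
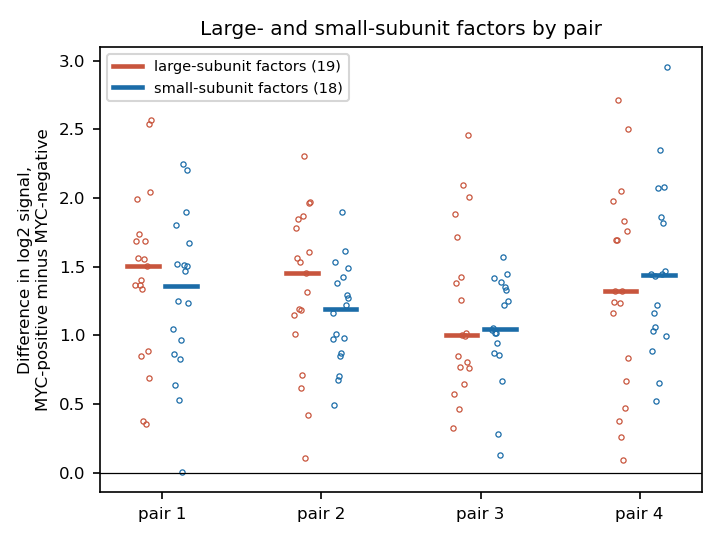
Difference in log2 signal for each of 19 large-subunit (left in each pair) and 18 small-subunit factors (right), by pair, with the class median as a bar. The medians run from 1.00 to 1.51 and from 1.05 to 1.44, and which class is ahead changes between pairs.

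The pairs were not equal. Pairs 1 to 4 gave the largest difference for 14, 7, 9 and 12 of the 42 members and the smallest for 2, 12, 13 and 15. Over the 1319 genes called higher, pairs 1 to 4 were the largest for 31.2%, 13.1%, 20.0% and 35.6% and the smallest for 10.0%, 17.4%, 40.9% and 31.7%. Pair 4 was thus often at either end, among the members and among all genes called higher. Myc itself differed by 3.44, 2.58, 2.62 and 2.71 in pairs 1 to 4, and the median member by 1.38, 1.21, 1.04 and 1.28. Pair 1 was thus the largest in both, and with 4 pairs no relation between them was tested. The myeloid marker sum, a signal level and not a difference, was highest in the MYC-positive array of pair 1 and lowest in that of pair 3. As a level, the members' median log2 signal relative to each gene's mean over arrays was highest in pair 2. It was 0.68, 0.73, 0.53 and 0.59 in the MYC-positive arrays of pairs 1 to 4. The part of the myeloid signal in the members' differences was not tested.

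Other assembly factors, picked from knowledge of the pathway, were higher too, but by less and in a smaller share. Both lists were chosen with earlier results of these data known, and the part of that choice in this contrast was not tested. Of 76 measured, 50 were called higher and 0 lower, with a median of 0.77 (0.74 for 37 small-subunit and 0.91 for 39 large-subunit factors). At an unadjusted p under 0.05, again without a count over all genes, 62 were higher and 1, Nol7, lower. The largest small-subunit differences were in Pno1, the partner of Nob1, with 1.71, the t-UTP protein Utp4 with 1.70 and the processome protein Wdr46 with 1.61. Of the 37 small-subunit factors 22 were called higher and 15 were not called. Riok1 with 0.23 (limma adjusted p = 0.40) and Tsr3 with 0.14 (0.69) were among those not called. The largest of the large-subunit class were Rrp15, a pre-60S factor, with 2.14, the 60S-associated protein Tma16 with 2.06 and the nucleolar protein Lyar with 2.05. Lyar had signals of 3833, 4088, 3336 and 4299 in MYC-positive and 978, 996, 778 and 1005 in MYC-negative cells (SE 0.15, limma adjusted p = 0.00035). Averaging the probe sets of Tma16 gave 0.56 (adjusted p = 0.12). Nol7, a nucleolar protein, had 4144, 4398, 4986 and 4073 in MYC-positive and 5537, 5736, 6008 and 5744 in MYC-negative cells, without overlap and in the opposite direction (-0.39, SE 0.12, limma adjusted p = 0.051). Such a downward gap was seen in 1 of the 76, where 10.9% of all genes had one. The lowest difference of the 76 was in Rbm28, which was below 0 in all 4 pairs but not called (-0.70, SE 0.36, limma adjusted p = 0.20). Its pair 4 was at -2.14. Nol7 was singled out after its values were seen. It passed after quantile normalization (-0.54, adjusted p = 0.0051) and was at 0.049 after median centring, which added 0.44 to every gene. Without pair 1 the count of other factors called higher was 23, without pair 2 it was 22, and without the intensity trend 33. At these settings 403, 455 and 736 of all genes were called higher, against 1319 in the main fit.

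**Figure D4:**
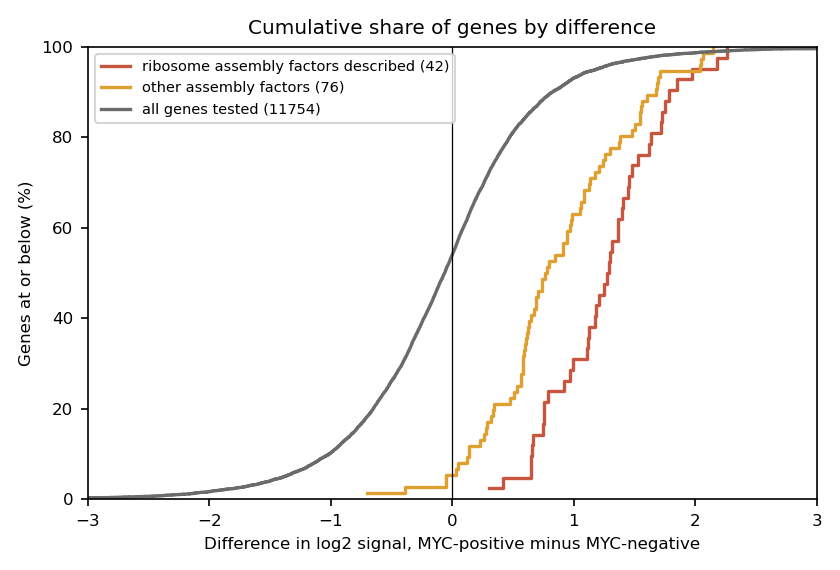
Cumulative share of genes by difference in log2 signal for the 42 factors described, the 76 other assembly factors and the 11754 genes tested. The medians are 1.28, 0.77 and -0.06, and the curve of the 42 factors lies to the right of both others over most of its length.

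Most members had more than 1 probe set on the array, and the size of the difference depended on which was read. The brightest probe set stood for each gene. Besides it, 28 members had 42 further probe sets above the filter, and tested singly 30 of these were called higher and 0 lower, where 9.03% of all 22024 kept probe sets, and 6.82% of the further probe sets of all genes, were called higher. Of all 42 further probe sets 25 showed a larger difference than the brightest one of their gene. All 25 were among the 30 called, and a call itself depends on the size of the difference. The median was 1.18 over the 42 further probe sets and 1.28 over the brightest ones of the 42 members. Nip7 and Bms1 were among them: at the second probe set Nip7 had 4985, 5164, 4569 and 7892 in MYC-positive and 2039, 2592, 2244 and 3035 in MYC-negative cells, without overlap (1.17, SE 0.14, limma adjusted p = 0.0017). The second probe set of Bms1 had 2765, 3166, 2213 and 1664 in MYC-positive and 2041, 1976, 1544 and 1052 in MYC-negative cells, higher in each pair (0.57, SE 0.15, limma adjusted p = 0.028). In Nolc1 the other probe sets gave 1.97 and 1.93 in place of 1.11, and in Pa2g4 the 5 probe sets ran from 0.75 to 1.56.

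The other 12 of these probe sets did not pass, and 4 of them lay below 0. Their geometric mean signals in MYC-positive cells were 41.4 to 863, against 335 to 12975 for the 30 that were called. Pair 4 was below 0 in 10 of the 12 and pair 2 above 0 in all 12, and the MYC-positive array of pair 4 was the lowest of the 8 arrays in 7. The second probe set of Pes1, for example, had 68.6, 59.0, 69.1 and 10.5 in MYC-positive and 59.9, 38.8, 47.6 and 99.1 in MYC-negative cells (-0.48, SE 0.66, limma adjusted p = 0.65). In this probe set the array that stood apart decided the sign, since the other 3 pairs were above 0. With the mean over probe sets the calls of Pes1 (0.36, adjusted p = 0.42), Bop1 (0.40, 0.28), Heatr1 (0.66, 0.095), Utp18 (0.66, 0.077) and Ebna1bp2 (0.62, 0.065) ended, and those of Bms1 (0.50, 0.040) and Nip7 (0.74, 0.0041) were made. Among the brightest probe sets 5 have names ending in _s_at (Wdr43, Bms1, Tsr1, Grwd1 and Pa2g4) and 2 in _x_at (Noc4l and Rrs1), endings that mark probes able to match several transcripts, so these values are less certain.

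**Figure D5:**
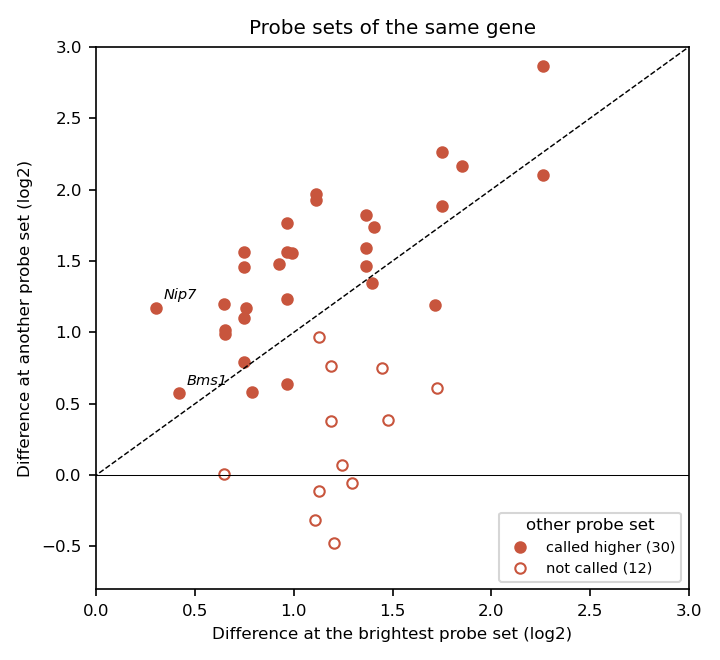
Difference in log2 signal at each further probe set (vertical) against the brightest probe set of the same gene (horizontal), with the line of equality dashed. Of the 42 further probe sets 25 lie above the line, Nip7 and Bms1 among them. All 25 are among the 30 called, and the 12 open ones that were not called all lie below it.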

How the data were processed

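RNA of 4 MYC-positive and 4 MYC-negative samples was measured on 1-colour arrays after NuGEN amplification of 5 to 20 ng of total RNA, per the labels' protocols. The deposited files hold linear signal intensity for each probe set. The submitters' processing notes name MAS5, with its version not given in the sources used here. Precision is limited by the number of arrays.

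Of 45056 probe sets, 34945 had 1 gene in the platform annotation, 932 several and 9160 none named here. Signals under 1 were raised to 1 before log2. Probe sets with a mean above the 40th percentile (a signal of 18.7) were kept, and the one with the highest mean stood for each of 11754 genes. A linear model of group and pair was fitted by limma 3.58.1 (R 4.3.3) with an intensity trend and 3 residual degrees of freedom, and 2-sided p-values were adjusted over all genes tested. Where pairs are not separate animals, these measure only the spread between samples. Differences are MYC-positive minus MYC-negative.

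The pairs come from the sample descriptions. Paired samples' deviations from their group means correlated at 0.26, 0.17, 0.088 and 0.12 in pairs 1 to 4, while the MYC-positive array of pair 3 and the MYC-negative array of pair 4 reached 0.30. The members, the other factors and the marker lists were chosen with earlier results of these data known, so no list was given a p. All members are named, and signals by array are given for the largest and smallest differences of each class, members that did not pass, and the PeBoW genes. They are not given for Heatr1, Utp18 and Ebna1bp2, whose calls ended with the mean over probe sets. The singly tested probe sets are an alternative chosen after seeing the data. On simulated arrays with 50 of 11754 genes changed by each size, limma recovered 96% of genes raised by 2, 48% raised by 1, 38% lowered by 1 and 70% lowered by 2 on the log2 scale, with 10 false calls. In the data 2671 genes (22.7%) were called, far more than were changed in the simulation, so these shares need not hold for the data. Alternatives were other scalings, filters, floors, probe set rules and models, and leaving out each pair.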

Additional observations from a re-analysis of the deposited data

Results flagged for a closer look

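In 86 groups of 4 arrays (42 members and Myc, 2 groups each), 5 had 1 array set far from the other 3, where chance gives about 1 in 20. The MYC-positive array of pair 3 was the lowest of its group in Rcl1 (1792, with the other 3 at 2314 to 2376) and in Bysl (1315, with the others at 1765 to 1836). In Grwd1 the MYC-positive array of pair 4 was the highest (4842, with the others at 3407 to 3596) and the MYC-negative array of pair 1 the lowest (581, with the others at 849 to 917). The MYC-negative array of pair 4 was the lowest in Rrp12 (82.4, with the others at 158 to 164). All 5 arrays lay on the same side of the other group as the rest of their own.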

How the results depend on the processing

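Over 12 alternatives no member lay below 0, and 20 of the 42 were called under every one. Median centring raised the median of all genes by 0.44 and quantile normalization by 0.15. The split of all genes was 3204 higher and 546 lower after median centring, and 1319 higher and 1352 lower as deposited. Members' medians became 1.72 (small-subunit 1.71, large-subunit 1.75) after median centring, and the large-subunit median was 1.62 after quantile normalization. Relative to the median of all genes the members stood at 1.35 as deposited, 1.35 after median centring and 1.25 after quantile normalization. Nol7 was at 0.049 after median centring, since that setting adds the same amount to every gene. The number of other factors called lower was 1 after quantile normalization, with the 60th percentile filter and with a floor of 16. Without the intensity trend 30 members were called higher (14 small-subunit and 13 large-subunit), with the calls of Wdr43, Dcaf13, Imp3, Pes1, Ppan, Rrs1, Brix1, Gnl2, Npm1 and Pa2g4 ended at adjusted p from 0.051 to 0.12, and 33 other factors, 736 genes higher and 771 lower. Without the pair as a block 38 members were called (Rrs1 had adjusted p = 0.060 and Brix1 0.0502), with 901 genes lower. Leaving out a pair gave 25 to 40 members called higher, 10 to 18 large-subunit members, 22 to 54 other factors, and 403 to 1742 genes higher and 352 to 2036 lower. The lowest counts came without pair 1 or pair 2, and the cause was not tested.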
